A study of Mus musculus with 24 samples.

Results

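Interferon-stimulated genes were followed in the epididymal fat pad (epididymal white adipose tissue) of 24 male C57BL/6JRcc mice. A list of 37 genes was set by name, and their probes were found through the accession that the array files give for each probe. Of these genes 35 had a matched probe, and 34 were measured, which meant a signal clearly over background on 6 or more of the 24 arrays. They were part of 22322 features compared in all (13442 named genes and 8880 probes with no gene name). Oas3 was well above background on 1 array and was not compared, and Mx1 and Mx2 had no matched probe and are not analysed here. The 34 genes gave a value on all 24 arrays, and 32 of them were well above background on every array.

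The No NR mice (n = 12) were fed for 18 weeks on a semi-synthetic diet whose content of nicotinamide riboside (NR), its vitamin B3 and a precursor of NAD, was 0 mg per kg, and the Ctrl NR mice (n = 12) on the same diet with 30 mg per kg. Both diets held 0.115% tryptophan, another precursor of NAD, and 40% of their energy came from fat. No genetic change is given for either group. All mice were singly housed and 8 or 9 weeks old at the start, had the Ctrl NR diet for 2 weeks before the groups were formed, and were killed at 28 or 29 weeks of age after a fast and 4 hours of refeeding. Each mouse's RNA was labelled with Cy5 and hybridised on its own array against a shared Cy3-labelled pool of fat pad RNA that also held other diets and females, so a value is a log2 ratio of the mouse over that pool. The question was whether withdrawal of vitamin B3 changed the transcripts of the fat pad. The arrays lay on 5 slides, each with 3 to 6 mice and with both diets, and between 34.5% and 50.7% of their spots were well above background. All 13 listed adipocyte markers were measured, and 4 of 5 markers of the epididymis were not. The other epididymis marker, Rnase10, was well above background on all 24 arrays, with a mean log2 ratio of 0.48 in both diets. The pad is a mixed tissue, in which fewer cells of a type and less RNA per cell cannot be told apart.

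Interferons are secreted alarm proteins. Type I interferons act through a receptor whose kinases lead to a complex with STAT2 and IRF9 that binds the interferon-stimulated response element (ISRE) of target promoters, while interferon gamma acts through its own receptor and the GAS element. The target genes make proteins that sense or destroy foreign RNA, block virus entry and release, mark proteins with ISG15, attack the vacuoles of intracellular microbes and supply peptides to MHC class I. In fat, both adipocytes and immune cells respond to interferons, and macrophages also express several of these genes as part of their own identity.

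Some of the genes share a chromosome, and some share short runs of sequence before their starts. The 4 measured OAS genes lie on chromosome 5, the 3 IFIT genes on chromosome 19, Igtp and Irgm1 on chromosome 11, Gbp2 and Gbp3 on chromosome 3, and Psmb8, Psmb9 and Tap1 on chromosome 17. Chromosome 11 also holds Irf1, Trim25, Ifi35, Xaf1 and Dhx58, chromosome 3 Ifi44 and chromosome 17 Eif2ak2. A shared chromosome does not mean neighbouring genes, and distances were not compared. RefSeq promoter windows of 300 bases (250 before and 50 after a transcription start, assembly GRCm38.p6) were at hand for 30 of the 34 genes, in 37 windows. The ISRE-like run GAAANNGAAA, sought on both strands, was found in 15 of the 37 windows (40.5%), against 3.44% of all 32851 windows of that length. The GAS-like run TTCNNNGAA, which reads the same on both strands, was found in 11 of the 37 (29.7%), against 8.3% of all windows. A match is a description of the letters and not evidence of binding. The genes were listed by name as interferon targets, so a higher share of these runs is no independent support for the list. The 120 bases before the start of 5 genes are shown, since their values mark the patterns described below: the lowest p of the list (Isg15), a classical type I target (Ifit1), a gene that followed macrophage markers (Oas1a) and the most closely linked pair of GTPases (Igtp and Irgm1). Capitals mark the ISRE-like runs, which overlap each other in Isg15, Oas1a and Irgm1, and each sequence is written 5′ to 3′ on the gene's strand.
Isg15 (chr4:156200819-156200938, minus strand): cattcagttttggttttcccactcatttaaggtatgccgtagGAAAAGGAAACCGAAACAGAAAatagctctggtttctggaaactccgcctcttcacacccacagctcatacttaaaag
Ifit1 (chr19:34640769-34640888, plus strand): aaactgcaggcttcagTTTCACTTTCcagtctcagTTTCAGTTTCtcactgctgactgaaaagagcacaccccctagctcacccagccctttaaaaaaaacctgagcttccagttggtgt
Oas1a (chr5:120907526-120907645, minus strand): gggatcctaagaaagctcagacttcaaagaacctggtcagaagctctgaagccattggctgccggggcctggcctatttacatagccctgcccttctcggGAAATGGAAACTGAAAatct
Igtp (chr11:58199436-58199555, plus strand): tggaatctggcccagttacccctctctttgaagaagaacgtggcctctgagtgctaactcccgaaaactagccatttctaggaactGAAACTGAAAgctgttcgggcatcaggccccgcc
Irgm1 (chr11:48871421-48871540, minus strand): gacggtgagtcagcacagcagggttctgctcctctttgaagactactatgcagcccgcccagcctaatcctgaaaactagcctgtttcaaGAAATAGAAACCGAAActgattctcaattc
The runs begin 78, 72 and 66 bases before the start in Isg15, 104 and 85 bases before it in Ifit1, 20 and 14 in Oas1a, 34 in Igtp, and 30 and 24 in Irgm1. In Ifit1 they stand as TTTCNNTTTC, the reverse complement.

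After 18 weeks without NR, none of the 34 genes passed the test, which was limma with Benjamini-Hochberg adjustment over all 22322 features at a threshold of 0.05. None of the 22322 features passed it either (0%). At an unadjusted p under 0.05 there were 3 of the 34 genes (8.82%), Isg15, Tap1 and Ifitm3, against 3059 of all features (13.7%). By direction, 1 of the 34 genes was higher in No NR at that level, against 6.69% of all features, and 2 were lower, against 7.02%. As a group, 14 genes had a higher and 20 a lower mean in No NR mice, and the median log2 fold change (No NR minus Ctrl NR) was -0.0027, against -0.0064 over all features. The split was 6 higher and 28 lower when arrays were centred on their median in place of loess, and 21 higher and 13 lower without background subtraction. Within slides 1 to 5 the median difference of the 34 genes was -0.023, -0.012, -0.16, 0.12 and 0.083. Slide 3 had 8 genes higher and 26 lower, and slide 4 had 28 higher and 6 lower. With slide as a block the median was -0.0024, and why the slides differed was not tested. The median absolute log2 fold change was 0.074, against 0.079 over all features. The ranges of the diets overlapped for all 34 genes. They failed to overlap for 0 of the 22322 features (0%), so overlap is not particular to the list. The 95% intervals, each taken for 1 gene alone, give the differences that remain compatible with its values. The widest, that of Oas1a, ran from -0.27 to 0.73 log2 units, and that of Isg15 reached down to -0.65.

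**Figure D1:**
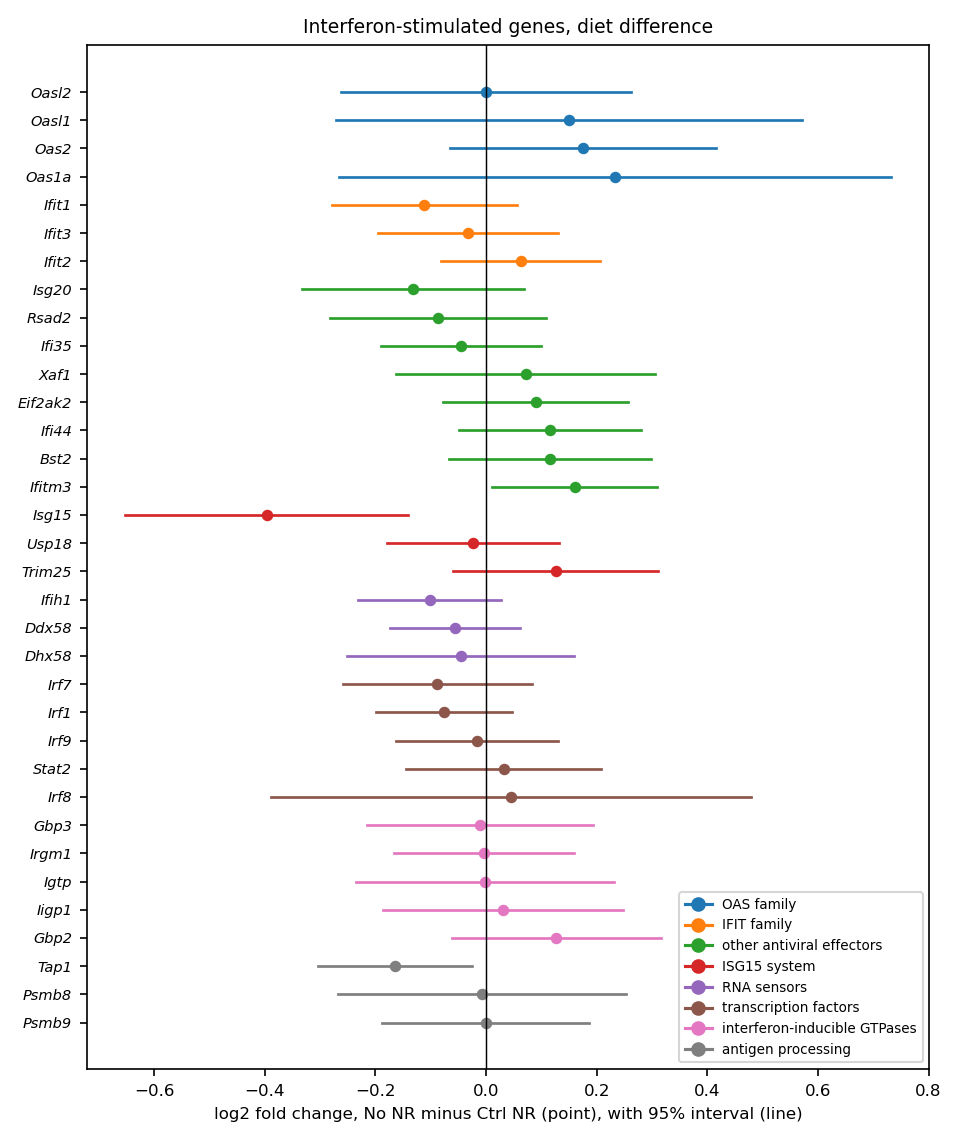
Log2 fold change of each measured interferon-stimulated gene (No NR minus Ctrl NR, horizontal axis), with its 95% interval as a line, grouped and coloured by role. The intervals of Isg15, Tap1 and Ifitm3 leave out 0, and those of Oas1a, Oasl1 and Irf8 are the widest.

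The ISG15 system holds the ubiquitin-like protein Isg15, the protease Usp18, which removes it from proteins and also dampens the type I receptor, and Trim25, a ligase for ISG15 and for the RNA sensor RIG-I. Isg15 had log2 ratios with a lowest value of -0.69, a median of 0.018 and a highest of 0.35 in No NR mice, against -0.27, 0.29 and 0.86 in Ctrl NR mice. Of the 12 No NR mice, 11 were below the Ctrl NR median, and 3 were below the lowest Ctrl NR mouse. Its mean was -0.068 ± 0.29 in No NR and 0.33 ± 0.36 in Ctrl NR (SD, n = 12 each), a log2 fold change of -0.40 (SE 0.125, 95% interval -0.65 to -0.14, 0.760-fold), with an unadjusted p of 0.0037 and an adjusted p of 0.163. This was the lowest p of the list, and it did not pass the test. The difference was below 0 within each of the 5 slides, at -0.91, -0.17, -0.15, -0.37 and -0.63, of which the -0.91 rests on 1 No NR mouse. With slide as a block the difference was -0.40 with an adjusted p of 0.228. A dimmer probe of the same gene gave -0.15 with an unadjusted p of 0.0798, and the deviations of the probes from their diet means correlated at 0.30 over the 24 mice, so the size of the difference rests on which probe is read. Leaving out each mouse in turn kept Isg15 between -0.45 and -0.34, with adjusted p-values between 0.0604 and 0.276.

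The other genes of that system had smaller differences. Usp18 ranged over -0.31, -0.11 and 0.48 (lowest, median, highest) in No NR mice, against -0.38, -0.0060 and 0.16 in Ctrl NR mice. The ranges overlapped, with 1 No NR mouse above every Ctrl NR mouse, and the log2 fold change was -0.024 (SE 0.076, adjusted p = 0.912 in limma). Trim25 stood at 0.13 (adjusted p = 0.558).

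The OAS enzymes make short oligoadenylates that activate RNase L, which degrades RNA, and the OAS-like proteins Oasl1 and Oasl2 are their relatives. Their mean log2 ratios were higher in No NR mice for 3 of 4, with a median log2 fold change of 0.16, and none passed the test; with the macrophage marker mean, described below, as a covariate the count was 1 of 4. Oas2 had a lowest, median and highest value of -0.33, -0.081 and 0.73 in No NR mice, against -0.67, -0.17 and 0.26 in Ctrl NR mice. For Oas2, 2 No NR mice exceeded every Ctrl NR mouse, and the log2 fold change was 0.18 (SE 0.117, adjusted p = 0.521).

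Together with Irf8 (0.565), Oas1a and Oasl1 had the largest SDs within diets of the 34 genes, at 0.652 and 0.548 log2 units, against a median of 0.226 over the list and 0.196 over all features. Oas1a ranged over -1.34, 0.026 and 0.24 in No NR mice, against -1.77, -0.52 and 0.71 in Ctrl NR mice. The No NR range lay wholly inside the Ctrl NR range, and the log2 fold change of 0.23 had an SE of 0.243 (adjusted p = 0.695). Oasl1, which in mice restrains the production of IRF7 protein, ranged over -1.05, -0.024 and 0.60 in No NR mice, against -1.28, -0.26 and 0.90 in Ctrl NR mice. It gave a log2 fold change of 0.15 (SE 0.205, adjusted p = 0.770), again with one range inside the other. Oasl2 had -0.71, -0.20 and 0.35 in No NR mice, against -0.73, -0.094 and 0.42 in Ctrl NR mice, and its means were the same to within 0.00025 log2 units (SE 0.128, log2 fold change -0.00025, adjusted p = 0.9992).

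The IFIT proteins bind foreign RNA and hold back its translation. Ifit1, which recognises RNA caps that lack a methyl group, had a lowest, median and highest value of -0.40, -0.24 and 0.18 in No NR mice, against -0.34, -0.16 and 0.49 in Ctrl NR mice. Most mice of both diets lay below the pool and overlapped, and the log2 fold change was -0.11 (SE 0.0815, adjusted p = 0.565). Ifit2 stood at 0.062 and Ifit3 at -0.032, with unadjusted p-values of 0.378 and 0.688.

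Among 8 other antiviral effectors, 5 had a higher and 3 a lower mean in No NR mice, or 2 and 6 with median centring. Ifitm3, a membrane protein that blocks the fusion of entering viruses, had a lowest, median and highest value of -0.037, 0.15 and 0.39 in No NR mice, against -0.33, 0.013 and 0.36 in Ctrl NR mice. Of the No NR mice 9 of 12 were above the Ctrl NR median. The means were 0.15 ± 0.13 in No NR and -0.0078 ± 0.21 in Ctrl NR (SD, n = 12 each), a log2 fold change of 0.16 (SE 0.0725, 95% interval 0.011 to 0.31) with an unadjusted p of 0.0359 and an adjusted p of 0.324. Within slides the Ifitm3 difference was 0.22, 0.012, -0.065, 0.37 and 0.24, and it turned to -0.0054 when arrays were centred on their median in place of loess.

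Bst2, the tether that holds budding viruses on the cell, had -0.37, -0.040 and 0.32 in No NR mice, against -0.58, -0.10 and 0.25 in Ctrl NR mice. Its ranges overlapped, and its log2 fold change was 0.12 (SE 0.0892, adjusted p = 0.587), or -0.015 after median centring. Ifi44, a little understood interferon-induced protein, was well above background on 21 arrays and had -0.47, -0.16 and 0.33 in No NR mice, against -0.45, -0.22 and 0.082 in Ctrl NR mice, with a log2 fold change of 0.12 (SE 0.0802, adjusted p = 0.540). The other 5 effectors lay between -0.13 for the RNA exonuclease Isg20 and 0.090 for Eif2ak2, the kinase PKR that stops translation on sensing double-stranded RNA. Between them stood Rsad2, known as viperin, at -0.087, Ifi35 at -0.045 and the apoptosis-linked Xaf1 at 0.071. Their unadjusted p-values lay between 0.187 and 0.536.

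All 3 sensors of cytosolic RNA had a lower mean in No NR mice (2 of 3 with array weights), and none passed the test. Ifih1, known as MDA5, had a lowest, median and highest value of -0.52, -0.19 and -0.0057 in No NR mice, against -0.30, -0.12 and 0.13 in Ctrl NR mice. For Ifih1, 4 No NR mice were below every Ctrl NR mouse, and the log2 fold change was -0.10 (SE 0.0629, adjusted p = 0.483). Ddx58, which encodes RIG-I, stood at -0.056 with the probe used (unadjusted p = 0.341) and at -0.17 with a dimmer probe (unadjusted p = 0.0212), and the probes did not follow each other across mice (r = -0.080 over 24 mice, diet means removed). Dhx58, a regulator of both sensors, stood at -0.045.

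Of the transcription factors, Stat2 and Irf9 are partners in the complex that binds the ISRE, Irf7 amplifies type I interferon production, Irf1 drives many targets of interferon gamma, and Irf8 is needed for the formation of monocytes and macrophages. Irf7 had -0.43, -0.13 and 0.21 in No NR mice, against -0.33, 0.0019 and 0.48 in Ctrl NR mice. Its ranges overlapped, with a log2 fold change of -0.088 (SE 0.0834, adjusted p = 0.662). Stat2 had -0.42, -0.078 and 0.59 in No NR mice, against -0.37, -0.065 and 0.16 in Ctrl NR mice, with a log2 fold change of 0.032 (SE 0.0862, adjusted p = 0.896). Irf8 spread far more widely, over -0.91, 0.10 and 0.59 in No NR mice and -1.0, -0.075 and 0.75 in Ctrl NR mice. Its No NR range lay inside the Ctrl NR range, and the log2 fold change was 0.045 (SE 0.211, adjusted p = 0.945). Irf1 stood at -0.076 and Irf9 at -0.017.

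The interferon-inducible GTPases gather on the vacuoles of intracellular microbes and damage them. Gbp2 had -0.17, 0.22 and 0.71 in No NR mice, against -0.30, 0.063 and 0.34 in Ctrl NR mice. For Gbp2, 3 No NR mice exceeded every Ctrl NR mouse, and the log2 fold change was 0.13 (SE 0.0922, adjusted p = 0.561). Irgm1, which regulates the other immunity-related GTPases, had -0.52, -0.20 and 0.28 in No NR mice, against -0.42, -0.16 and 0.19 in Ctrl NR mice, and its log2 fold change was -0.0034 (SE 0.0796, adjusted p = 0.990). Igtp, Gbp3 and Iigp1 lay between -0.010 and 0.031, with adjusted p-values from 0.919 to 0.995. Dimmer probes, well above background on 24 arrays, gave 0.16 for Iigp1 and 0.093 for Irgm1 (unadjusted p = 0.251 and 0.302 in limma). With diet means removed they correlated at 0.76 and 0.55 with the probes used. The correlations below were read from the brightest probe of each gene.

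Psmb8 and Psmb9 are catalytic subunits of the immunoproteasome, which cuts proteins into peptides for MHC class I, and Tap1 is a subunit of the pump that carries those peptides into the endoplasmic reticulum. Tap1 had a lowest, median and highest value of -0.27, -0.12 and 0.059 in No NR mice, against -0.38, 0.020 and 0.43 in Ctrl NR mice. Of the No NR mice 11 of 12 were below the Ctrl NR median, while the No NR range lay inside the Ctrl NR range. Its means were -0.13 ± 0.086 in No NR and 0.038 ± 0.21 in Ctrl NR (SD, n = 12 each), a log2 fold change of -0.16 (SE 0.0675, 95% interval -0.30 to -0.026) with an unadjusted p of 0.0219 and an adjusted p of 0.279. Within slides it was -0.064, -0.12, -0.37, -0.15 and -0.14. Psmb8 had -0.60, 0.068 and 0.43 in No NR mice, against -0.71, -0.0094 and 0.50 in Ctrl NR mice, with a log2 fold change of -0.0076 (SE 0.127, adjusted p = 0.986), and Psmb9 stood at -0.00069.

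**Figure D2:**
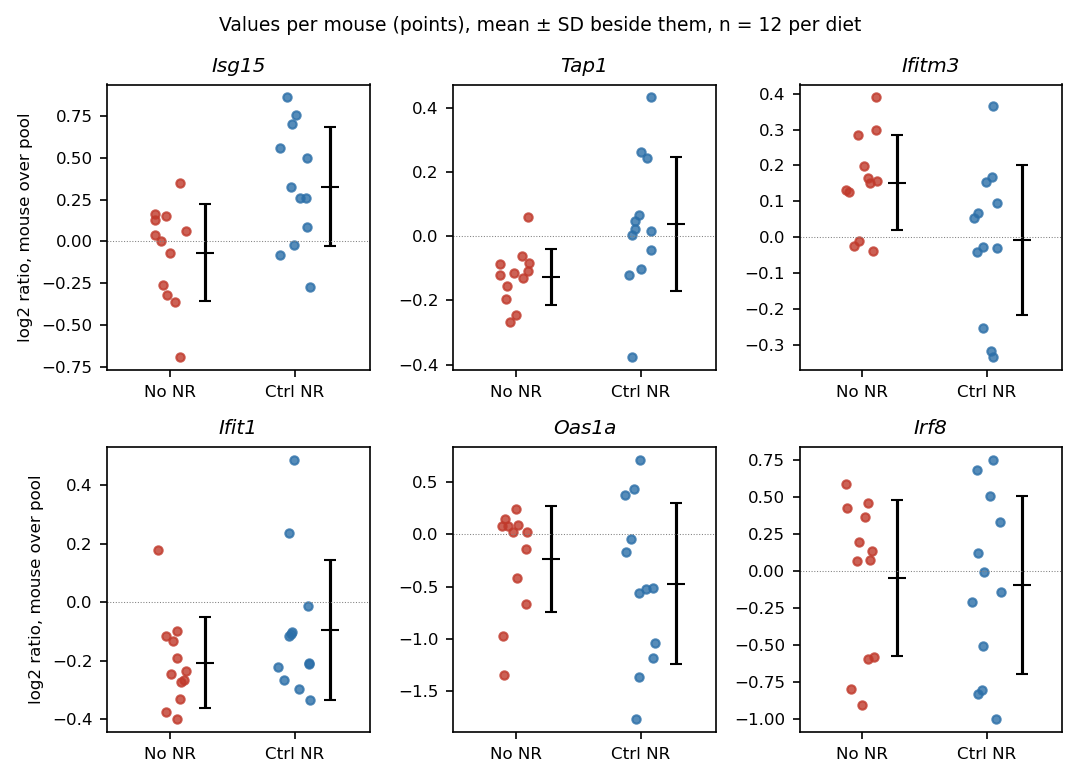
Log2 ratio of each mouse over the pool (points) for 6 genes, with mean ± SD beside them, No NR left and Ctrl NR right (n = 12 each). Isg15 and Tap1 lie lower in most No NR mice, Ifitm3 higher, and all ranges overlap; Oas1a and Irf8 spread over more than 1 log2 unit within each diet.

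The rest of the interferon pathway was read from 5 lists, in each of which 0 genes passed the test, and unadjusted counts are set against the 13.7% of all features. Of 11 interferon genes 4 were measured, 2 with a higher and 2 with a lower mean in No NR mice. Ifna5 and Ifng, well above background on 6 arrays each, stood at 0.067 and 0.094. Ifnb1 and the other 6 were not measured. All 10 receptor and JAK-STAT genes were measured, with 6 higher and 4 lower. The kinase Jak1 stood at 0.29 (unadjusted p = 0.00989, adjusted p = 0.220) and the kinase Jak2 at -0.11 (unadjusted p = 0.0427). The receptor chains Ifnar1 and Ifngr1 stood at 0.058 and -0.035.

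Of 14 sensors and adaptors upstream of interferon 8 were higher and 6 lower, 1 of them at an unadjusted p under 0.05. This was the kinase Tbk1 at 0.22 (unadjusted p = 0.0489), while Irf3, the factor it phosphorylates, stood at -0.18 (unadjusted p = 0.0554). Among 9 inhibitors of the pathway 2 were higher and 7 lower, or 5 and 4 with array weights and 4 and 5 with the Cy5 signal alone, with Socs1 at -0.20 (unadjusted p = 0.0298) and Socs3 at -0.22 (unadjusted p = 0.143). Another 49 interferon-induced genes were listed and 46 measured, 26 higher and 20 lower, or 14 and 32 with median centring, of which 4 and 1 had an unadjusted p under 0.05. Tap2, the partner of Tap1 in the peptide pump, stood at -0.22 (SE 0.050, unadjusted p = 0.000149), which gave an adjusted p of 0.0802. It passed with array weights (-0.24, adjusted p = 0.0171) and without Ctrl NR mouse 68, 104 or 117, with adjusted p-values between 0.0343 and 0.0489. In those fits 434, 215, 76 and 203 of all features passed, in the same order. The GTPase Gbp6 stood at 0.30 (adjusted p = 0.220).

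Within diets the median SD of the 34 genes was 0.226 log2 units, above the median absolute difference between diets of 0.074. Over all features these medians were 0.196 and 0.079, so the order is not particular to the list. The SD is that of single mice, and the median SE of the 34 differences was 0.090. Correlations over the 24 mice were taken after the diet means had been removed, with permutation tests of 100000 resamples within diets and Benjamini-Hochberg adjustment over the 561 pairs of genes. The median r of all pairs was 0.27, and 99 pairs passed with a positive and 4 with a negative r. By Spearman's rho as well, 67 of them passed. Pairs of other features were not counted in this way, so these counts do not show whether the list is more closely linked than other genes. The 10 pairs of GTPases all correlated above 0.48, with a median of 0.62, and 7 passed, 5 of them by rho as well. Their median was 0.77 within No NR and 0.31 within Ctrl NR, a difference that was not tested. Igtp and Irgm1, the closest of them, had r = 0.84 and rho = 0.80 (adjusted permutation p = 0.000561 and 0.00125), with r = 0.87 within No NR, 0.78 within Ctrl NR, 0.86 with slide means removed and 0.71 without the 2 mice farthest from the median of Igtp. The 3 antigen processing genes had a median r of 0.60, and Psmb8 with Psmb9 reached 0.80. The 3 IFIT genes had a median of 0.37 and the ISG15 system one of 0.092, with no pair of either passing.

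The closest pair of the list joined an OAS gene and a transcription factor. Oas1a with Irf8 had r = 0.95 and rho = 0.95 (adjusted permutation p = 0.000561 and 0.000801), and r = 0.93 within No NR, 0.97 within Ctrl NR and 0.95 both without the 2 mice farthest from the median of Oas1a and with slide means removed. Oasl1 with Irf8 had r = 0.90 and Oas1a with Oasl1, both of the OAS family, also 0.90. Isg20 went the other way, with r = -0.76 against Irf8, -0.68 against Oas1a, -0.63 against Oasl1 and -0.55 against Psmb8, the 4 negative pairs that passed. Isg15 passed only with Gbp3 (r = 0.53, adjusted permutation p = 0.0445) and Ifih1 (r = 0.53, adjusted permutation p = 0.0493), the second not by rho (adjusted permutation p = 0.098).

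**Figure D3:**
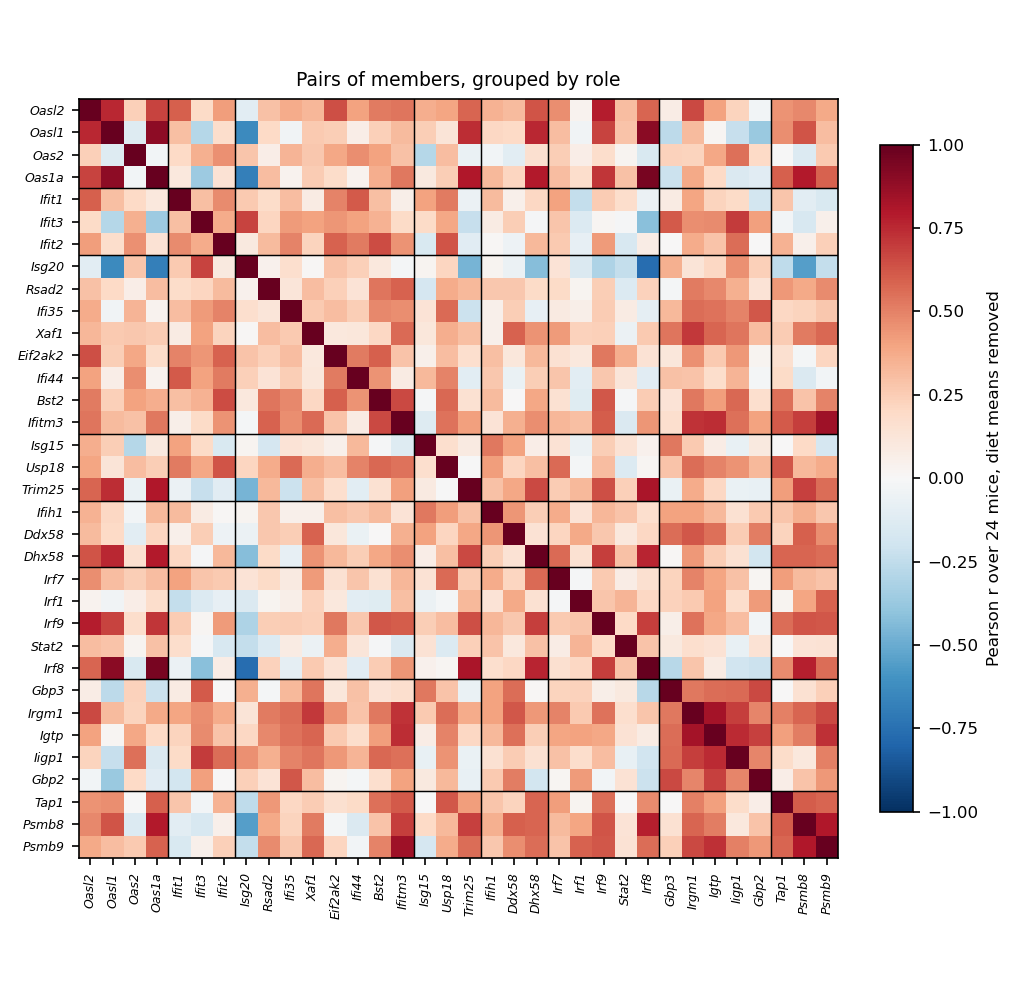
Pearson r of each pair of genes over the 24 mice with diet means removed, from -1 (blue) to 1 (red), with genes grouped by role between black lines. The GTPases form a red block, Oas1a, Oasl1 and Irf8 share a pattern with Trim25, Dhx58, Psmb8 and Irf9, and Isg20 is blue against them.

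Part of the pair pattern rested on 1 mouse. The mouse No NR 78 held the highest value of the 24 in 16 of the 34 genes, among them Oas2, Ifit2, Ifit3, Usp18, Eif2ak2, Iigp1 and Gbp2, while Ctrl NR 88 held it in 9. Both mice were on slide 4. Usp18 was 0.48 in No NR 78, against 0.16 in the next mouse, and Ifit2 was 0.29 against 0.026. Its macrophage marker mean was -0.82, among the low values of its diet, and 50.7% of its spots were well above background, the largest share of all arrays. Without this mouse the median r of the IFIT pairs was 0.14 and that of the pairs of other antiviral effectors was 0.093, against 0.25 with it. The GTPase pairs then had a median of 0.51 and a lowest r of 0.29 (n = 23), the antigen processing pairs a median of 0.60 and all pairs one of 0.22. The diet comparison without it again called none of the 34 genes, with a median log2 fold change of -0.038. Of the 34 genes 13 then had a positive and 21 a negative log2 fold change. Iigp1 was -0.035 without it, against 0.031 with it, the 1 gene that changed sign. Oas2 was 0.11 against 0.18 with it, Gbp2 0.082 against 0.13, Ifi44 0.073 against 0.12 and Usp18 -0.072 against -0.024.

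The list also divided by its relation to macrophage markers. A set of 28 macrophage markers, of which 27 were measured and none is on the interferon list, had a mean log2 ratio from -1.01 to 0.56 in No NR mice (-0.14 ± 0.62, SD, n = 12), against -1.60 to 0.61 in Ctrl NR mice (-0.42 ± 0.75, SD, n = 12). Of the 27 markers 26 had a higher mean in No NR mice (23 with median centring), with a median of 0.24, and 0 passed the test. At an unadjusted p under 0.05 in limma 4 were higher and 0 lower. Over all features 6.69% were higher and 7.02% lower at that level, shares that also stand beside the lists below. Lists of some other cell types had lower means in No NR mice, with 0 of their genes passing. Of 11 endothelial markers 8 were lower (median -0.16, 5 of them at an unadjusted p under 0.05). All 4 measured B cell markers were lower (median -0.39, 2 at that level), as were all 5 mesothelial markers (median -0.15, 0 at that level). Of 15 T and NK cell markers 9 were higher (median 0.026, 1 of them at that level). Of 13 adipocyte markers 5 were higher (median -0.11, 0 at that level). Dendritic cell markers, of which 6 were measured, had 4 higher and 2 lower (median 0.040), with 1 in each direction at an unadjusted p under 0.05. With array weights, where 434 of all features passed, 1 macrophage, 1 endothelial, 1 B cell and 1 dendritic cell marker passed. The part of these lists in the values of the 34 genes was not tested. This mean was related to the 34 genes, as were the means of T and NK cell, endothelial and adipocyte markers, and p-values were adjusted over these 136 relations. With the macrophage mean 9 genes passed with a positive r and 1 with a negative r, and 21 had an r between -0.3 and 0.3. The lowest positive r that passed was 0.55 (Oasl2), and 13.8% of the 21980 features measured on all arrays had an r at least as high, while 7.63% were as far below 0. Between -0.3 and 0.3 lay 51.9% of these features. The median r was 0.25 for the 34 genes and 0.031 for all features.

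Irf8 followed the macrophage mean most closely, with r = 0.98 and rho = 0.98 (adjusted permutation p = 0.00017 and 0.000227). Oas1a had r = 0.94 and rho = 0.96 at the same adjusted p-values. Both rest on unadjusted p-values of 1e-05, the smallest that the resamples can give. Then came Oasl1 at r = 0.86, Trim25 at 0.83, Psmb8 at 0.82, Dhx58 at 0.72, Irf9 at 0.68, Psmb9 at 0.59 and Oasl2 at 0.55, with adjusted permutation p-values from 0.00017 to 0.0374. By rho Oasl2 did not pass (adjusted permutation p = 0.0792). Isg20 had r = -0.74 and rho = -0.80 (adjusted permutation p = 0.000567 and 0.000453). All 10 kept their sign within each diet, with slide means removed, and without the 2 mice farthest from the median of the macrophage mean. For Irf8 r was then 0.98, for Oas1a 0.94 and for Psmb9 0.41.

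In No NR mice the macrophage mean fell into separate sets, with 4 mice between -1.01 and -0.82 and 8 between 0.030 and 0.56. Among those 8 mice the r of Irf8 was 0.89, that of Oas1a 0.81, that of Oasl1 0.73 and that of Isg20 -0.64. Trim25 had 0.34, Psmb8 0.23, Irf9 0.21, Oasl2 0.12, Psmb9 -0.048 and Dhx58 -0.27. These 8 mice span a narrower range of the macrophage mean than all 12, and whether the gap between the sets sets these values was not tested. In the Ctrl NR diet mice 115, 95 and 75 lay at -1.60, -1.44 and -1.38, and the next, mouse 77, at -0.83. Within that diet the 9 positive genes had an r between 0.65 (Oasl2) and 0.99 (Irf8), and r without its low mice was not taken.

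**Figure D4:**
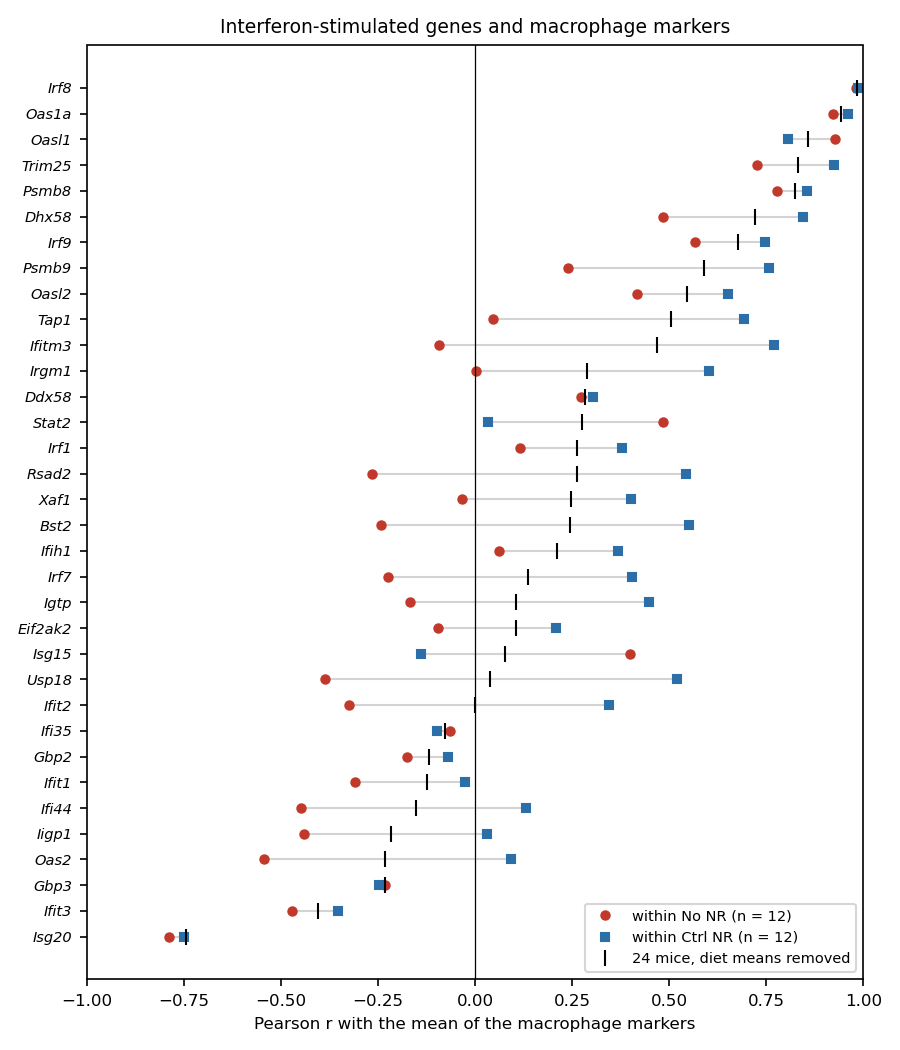
Pearson r of each interferon-stimulated gene with the mean of 27 macrophage markers, within No NR (circles), within Ctrl NR (squares) and over the 24 mice with diet means removed (ticks). Irf8 and Oas1a lie at 0.92 or above in both diets, Isg20 lies at -0.79 and -0.75, and genes such as Ifitm3, Bst2 and Usp18 have different signs in the diets.

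The IFIT genes, Isg15, Usp18, Irf7 and Rsad2 did not pass with the macrophage mean. Ifit3 had r = -0.40 and rho = -0.44 (adjusted permutation p = 0.143 and 0.126). Ifit1 had r = -0.12, Ifit2 0.00095, Usp18 0.038, Isg15 0.076, Irf7 0.14 and Rsad2 0.26, with adjusted permutation p-values between 0.466 and 0.996. Ifitm3 had r = 0.77 within Ctrl NR and -0.094 within No NR, and Usp18 0.52 and -0.39, but these differences between diets were not tested. With the macrophage mean as a covariate of the diet comparison, again none of the 34 genes passed. The log2 fold change of Irf8 was then -0.18 (adjusted p = 0.110), that of Oas1a -0.020 and that of Isg15 -0.41 (adjusted p = 0.137). By sequence, an ISRE-like run was in the window of 1 of the 8 genes with a window among the 9 that followed the macrophage mean, Oas1a, and in that of 14 of the other 22 genes with a window; this count was made after the values were seen and was not tested.

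Markers of other cells moved with the same genes, and the marker means were themselves linked. The macrophage mean had r = -0.96 with the adipocyte mean, -0.67 with the endothelial mean and 0.60 with the T and NK cell mean over the 24 mice, values that share arrays and pool. Their separate parts in the relations were not tested. With the adipocyte mean Irf8 had r = -0.95 and Oas1a -0.90, among 7 negative genes that passed, while Isg20 had 0.79, the only positive one. With the T and NK cell mean 8 genes passed, all positive. Psmb9 led them at r = 0.73 and rho = 0.77 (adjusted permutation p = 0.00115 and 0.00148), a closer relation than its 0.59 with the macrophage mean, although the difference of these r was not tested. Psmb8, Oas1a, Dhx58, Trim25, Tap1, Irf8 and Igtp followed, between 0.63 and 0.48. With the endothelial mean Isg20 and Gbp3 both had r = 0.66 and Ifit3 0.55, and Oasl1, Irf8 and Oas1a had between -0.70 and -0.68. The share of all features with such an r was not taken for the adipocyte, T and NK cell and endothelial means. These counts therefore do not set the list apart from other genes.

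**Figure D5:**
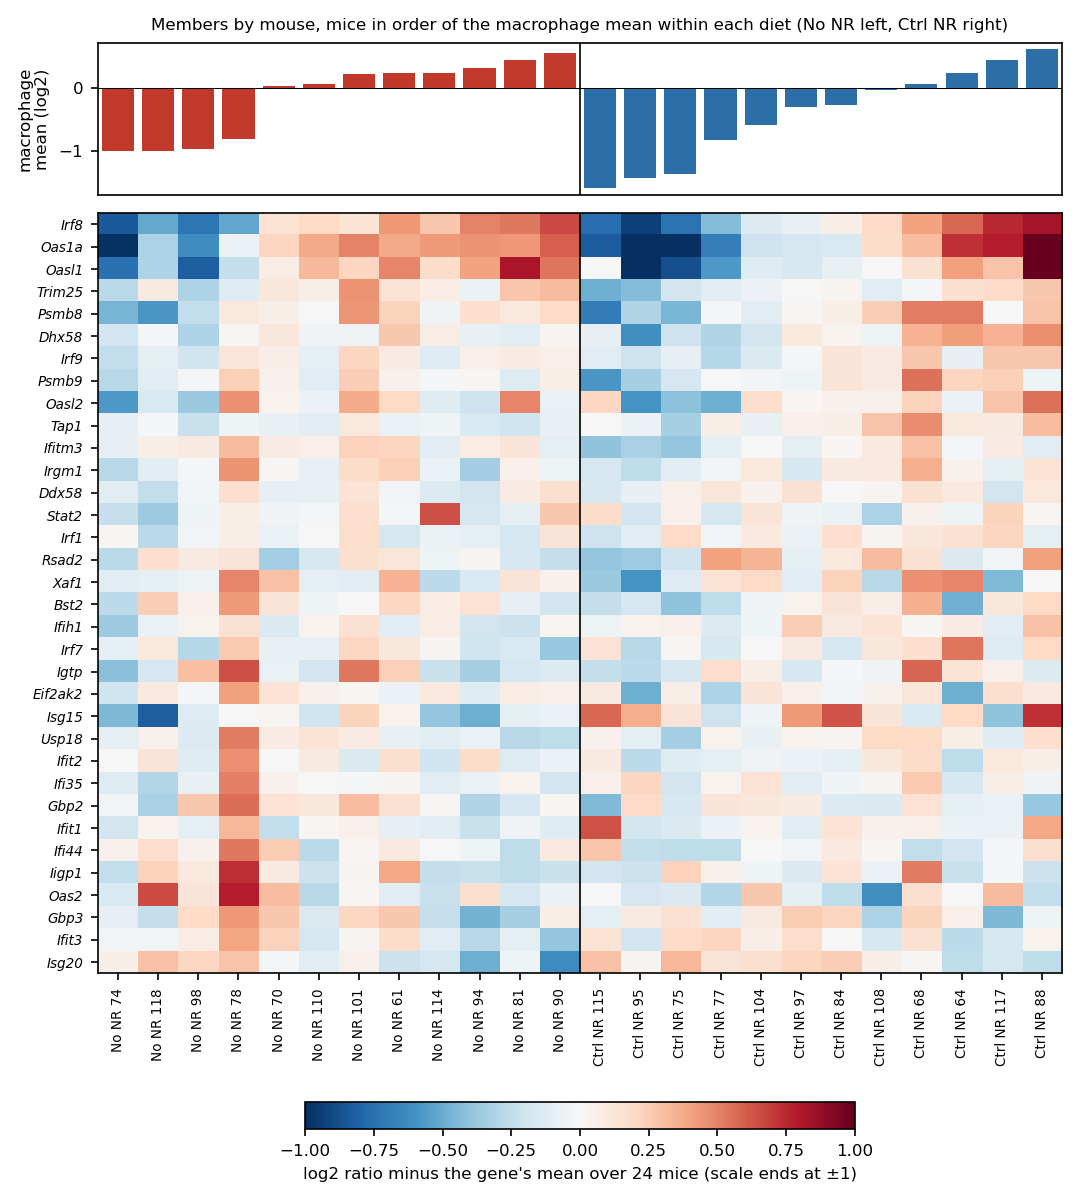
Log2 ratio of each gene minus its mean over 24 mice (colour, scale ends at 1 log2 unit to each side), with genes in order of their r with the macrophage mean and mice in order of that mean (bars) within No NR (left) and Ctrl NR (right). The top rows turn from blue to red with the bars in both diets, the bottom row of Isg20 does the opposite, and the column No NR 78 is red through the middle and lower rows.

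The named genes most like the mean of the 10 OAS, IFIT and ISG15 system genes, out of 13243 compared over the 24 mice with diet means removed, were Oas1f (r = 0.86), Phf11b, Dcp1b, Glb1, Scly, C1qa, Fcgr4, Shkbp1, Ebi3 and Gm11559 (r = 0.78). These 10 were picked as the highest, so their r is a description. C1qa, a subunit of complement C1q, is on the macrophage list, and Fcgr4 is an activating antibody receptor of myeloid cells. The r of all 10 with the macrophage mean lay between 0.72 (Shkbp1) and 0.95 (C1qa), and that of the mean of the 10 interferon genes was 0.68. Of those 10 genes, Oas1a, Oasl1, Trim25 and Oasl2 passed with the macrophage mean and the other 6 had an r between -0.40 and 0.076. Genes were not scaled before averaging, and Oas1a (SD 0.652) and Oasl1 (SD 0.548) have the widest spread within diets of the 10. Oas1f is a close relative of Oas1a, and signal shared between such copies on a probe was not tested.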

How the data were processed

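Spots of 24 Agilent arrays with 2 colours were quantified in Agilent Feature Extraction 10.7.3.1, per the submitters' processing notes and the file headers. Per the file headers, the deposited spot intensity is linear, and median signals are given; mean signals had been intended and were not among the columns used here. The authors' deposited value table holds log2 values of 26384 features, which followed each array's Cy5 signal (r at least 0.990) and not its log ratio (r at most 0.278), with a median of 8.04 in each column; its normalization is not given in the sources used here, and it served as an alternative. The deposited flags for background, saturation and outliers were read as yes or no per spot.

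Background was corrected with normexp (offset 50) and ratios were normalized by loess within arrays, control spots having weight 0 (limma 3.58.1, R 4.3.3). Control and outlier spots were left out, spots of a probe were averaged, and probes well above background in Cy5 on at least 6 of 24 arrays were kept, 26271 of 55681. Names came from unversioned accessions in a RefSeq table (GRCm38.p6), where 27235 probes matched 1 symbol and 28446 none. The file headers name mm9, so positions are those of RefSeq. Each gene was read from its brightest kept probe. Diets were compared with limma (lmFit, eBayes) over all 22322 features with Benjamini-Hochberg adjustment; the fit and the permutation tests were tested on simulated data. The number of arrays limits the precision, and the labels give 1 animal per array. Figures were drawn with matplotlib. The interferon genes, the other lists and the tests were chosen with earlier results of these data known. The genes given with full values are the 6 with the lowest p, the 3 with the largest spread within diets and 13 set by name (several genes fall under more than 1 part), of other pathway lists the 2 with the lowest p plus Ifnar1, Ifngr1 and Irf3, and the 10 genes most like the OAS, IFIT and ISG15 mean. The description of No NR 78, the 8 No NR mice and the promoter count by macrophage relation were added after the data were seen. A withheld result that the naming rule covers is not reported here.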

Additional observations from a re-analysis of the deposited data

How the results depend on the processing

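None of the 34 interferon-stimulated genes passed the adjusted threshold under any of 14 other settings or without any single mouse, and their median log2 fold change stayed between -0.086 (arrays centred on their median) and 0.024 (deposited processed signals), or -0.038 and 0.033 without single mice. The split of higher to lower genes, 14 to 20, became 6 to 28 with median centring, which moved the median of all features to -0.050, 21 to 13 without background subtraction, 20 to 14 with the deposited processed signals and 19 to 15 with array weights. With median centring 323 features (1.45%) had an unadjusted p under 0.05, and with array weights 4732. The count of all features that passed, 0, became 3 when all 24 arrays had to be above background, 3 with a variance trend and robust fit, 70 with the macrophage mean as a covariate and 434 with array weights. Without single mice it lay between 0 and 215, and leaving out 1 mouse gave 3 for No NR mouse 78, 2 for No NR mouse 118, 215 for Ctrl NR mouse 68, 203 for mouse 117, 76 for mouse 104, 32 for mouse 75 and 9 for mouse 77 of that diet; the cause was not tested.

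Isg15 was negative under all 14 settings, with adjusted p-values between 0.0614 and 0.9999. Log2 fold changes that changed sign were, without background subtraction, Oasl2 0.013, Irf9 0.0040, Gbp3 0.016, Igtp 0.020, Irgm1 0.017, Psmb8 0.011 and Psmb9 0.022. With the deposited processed signals they were Oasl2 0.030, Ifit3 0.0040, Irf9 0.051, Gbp3 0.021, Irgm1 0.020 and Psmb9 0.031. With median centring they were Bst2 -0.015, Ifitm3 -0.0054, Xaf1 -0.025, Trim25 -0.027, Irf8 -0.088, Stat2 -0.066, Gbp2 -0.0066 and Iigp1 -0.033. The Cy5 signal alone gave Igtp 0.033, Psmb8 0.0078 and Psmb9 0.010, the authors' deposited value table gave Irgm1 0.00083, and the mean of a gene's probes gave Irgm1 0.045. With slide as a block Oasl2 was 0.046 and Irgm1 0.0068. With the macrophage mean as a covariate Oas1a was -0.020, Oasl1 -0.043, Ifit3 0.00040, Irf8 -0.18 and Gbp3 0.014, and with array weights Oasl2 was 0.045, Dhx58 0.0046, Igtp 0.0091, Irgm1 0.017 and Psmb8 0.040. Among the 8 No NR mice with a macrophage mean above 0, r with that mean was -0.27 for Dhx58 and -0.048 for Psmb9. Causes of these changes were not tested. No paired analysis was possible because the diets share 0 animal numbers. The ratio of a gene near the array's background can be compressed. Whether this held for Tap1 or Ifi44, each well above background on 21 arrays, was not tested.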
